A study of Mus musculus with 14 samples.

Results

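Members of the S100 family of small calcium binding proteins (S100a1, S100a4, S100a6, S100a8, S100a9, S100a10, S100a11, S100a13 and S100a16) and Anxa2, the annexin that pairs with S100a10, were followed as messenger RNA in mouse brain hemispheres. They were picked by symbol, and these 10 genes are 10 of the 46904 in the expression table. All 10 passed the filter on low values, which kept 46102 genes. S100 proteins carry a pair of EF-hands, helix-loop-helix folds that hold calcium in the loop, and most work as dimers that grip a target protein when calcium rises. S100a10 is the exception that is held open without calcium, and its dimer joins Anxa2 at the cell membrane. On the cell surface this complex gathers plasminogen and plasminogen activator. S100a8 and S100a9 together form calprotectin, which neutrophils and monocytes carry in large amounts and release as an alarm signal, while S100a4, S100a6 and S100a11 are known in brain mainly from reactive astrocytes, vessels and infiltrating myeloid cells.

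The study asked how the lack of the neuropeptide cortistatin alters the brain after stroke. Male mice on a C57BL/6J background that carried the cortistatin gene (Cort+/+) or lacked it in the whole animal (Cort-/-) had the left middle cerebral artery closed by a filament and reopened (MCAO), under isoflurane with meloxicam for pain, in the mild form that the labels give as 20 min at an age of 12 weeks. The age of single mice is not given in the labels. At 48 h the ischemic hemisphere (MCAO) and the opposite, contralateral hemisphere (CL) were taken. Described as independent biological replicates, there were 3 Cort+/+ CL, 3 Cort+/+ MCAO, 3 Cort-/- CL and 5 Cort-/- MCAO libraries of polyadenylated RNA, and no group of mice without surgery, so CL is the uninjured side of an operated brain. The Cort+/+ MCAO libraries carry the numbers 2 to 4, and others of that group are not analysed here. The methods say that where replicates split into distinct groups only those that grouped well entered a comparison, and whether this applies to that group is not given in the sources used here. The labels do not say which hemispheres came from the same mouse.

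Between 25991114 and 43034553 reads on genes stood behind each of the 14 libraries. The levels are RPKM, reads scaled to the length of a gene and to the size of its library, and so can be compared between genes as well as between libraries. The library size used differed somewhat from the reads on genes. It was 3.73e+07 against 39112852 in Cort+/+ CL replicate 3 and 4.35e+07 against 41808884 in Cort-/- MCAO replicate 1. Cort itself was at 2.61 to 5.68 RPKM in the 6 Cort+/+ libraries and at 0 to 0.136 RPKM (0 to 4 reads) in the 8 Cort-/- libraries. Neuron markers summed to between 1761 and 2378 RPKM and oligodendrocyte markers to between 881 and 1147 RPKM, which is the make-up of brain tissue. In whole hemispheres, a change in the number of cells that carry a transcript and a change in its amount per cell cannot be told apart.

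The second EF-hand of each S100 protein holds calcium in a loop of 12 residues, and it is there that S100a10 parts from the rest. The bases that encode this loop in the 9 S100a genes are given as 12 codons (36 bases) each, 5′ to 3′ on the coding strand, with codons 1, 3, 5 and 12, which supply calcium contacts, in capitals.

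S100a1: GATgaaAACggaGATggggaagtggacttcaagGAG

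S100a4: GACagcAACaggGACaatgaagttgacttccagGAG

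S100a6: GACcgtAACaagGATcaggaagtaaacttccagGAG

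S100a8: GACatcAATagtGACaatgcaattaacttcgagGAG

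S100a9: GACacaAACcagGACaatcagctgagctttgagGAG

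S100a10: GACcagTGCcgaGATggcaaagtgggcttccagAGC

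S100a11: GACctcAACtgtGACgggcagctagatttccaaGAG

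S100a13: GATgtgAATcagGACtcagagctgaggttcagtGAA

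S100a16: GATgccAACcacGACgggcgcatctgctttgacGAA

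The last codon of the loop is GAA or GAG, the codons for glutamate, in 8 of the 9 genes, and it is AGC in S100a10, which also has TGC as codon 3 where the other 8 have AAC or AAT. The closest pair, S100a4 and S100a8, shared 29 of 36 bases, and S100a10 and S100a13 shared the fewest, 13 of 36. In the GRCm39 genome these stretches lie in the last coding exons of a single region of chromosome 3: on the plus strand S100a13 at chr3:90431696-90431731, S100a16 at chr3:90449717-90449752, S100a4 at chr3:90513092-90513127, S100a6 at chr3:90521540-90521575, S100a8 at chr3:90577179-90577214, S100a11 at chr3:93433344-93433379 and S100a10 at chr3:93471595-93471630. On the minus strand lie S100a1 at chr3:90418591-90418626 and S100a9 at chr3:90600158-90600193. Anxa2 is on chromosome 9, at chr9:69360542-69399077 on the plus strand.

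Between hemispheres, S100a4, S100a6, S100a11, S100a10, S100a13, S100a16 and Anxa2 stood higher on the ischemic side in both genotypes, while S100a1, S100a8 and S100a9 moved little or without order. In Cort-/- mice 7 of the 10 members rose (adjusted p under 0.05, limma) and none fell. Of all genes tested 1.34% were called higher there, and of genes whose mean level reached 1 RPKM, as that of all 10 members did, 3.05%. In Cort+/+ mice 0 of 10 were called by limma and 0 by a limma voom fit on reads. The share of all genes called higher by limma was 0.00868%. In either direction limma called 5 of all genes there and voom 45, fewer than the study's own test reported for this comparison. An unadjusted limma p under 0.05 was found for 7 of 10 members and for 3626 of all 46102 genes tested. Averaged over both genotypes, the same 7 genes were called higher, beside 2.52% of all genes and 5.56% of those reaching 1 RPKM. The median log2 fold change of the 10 members was 0.66 in Cort+/+ and 0.93 in Cort-/- mice, beside a median over all genes of 0 in each.

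**Figure D1:**
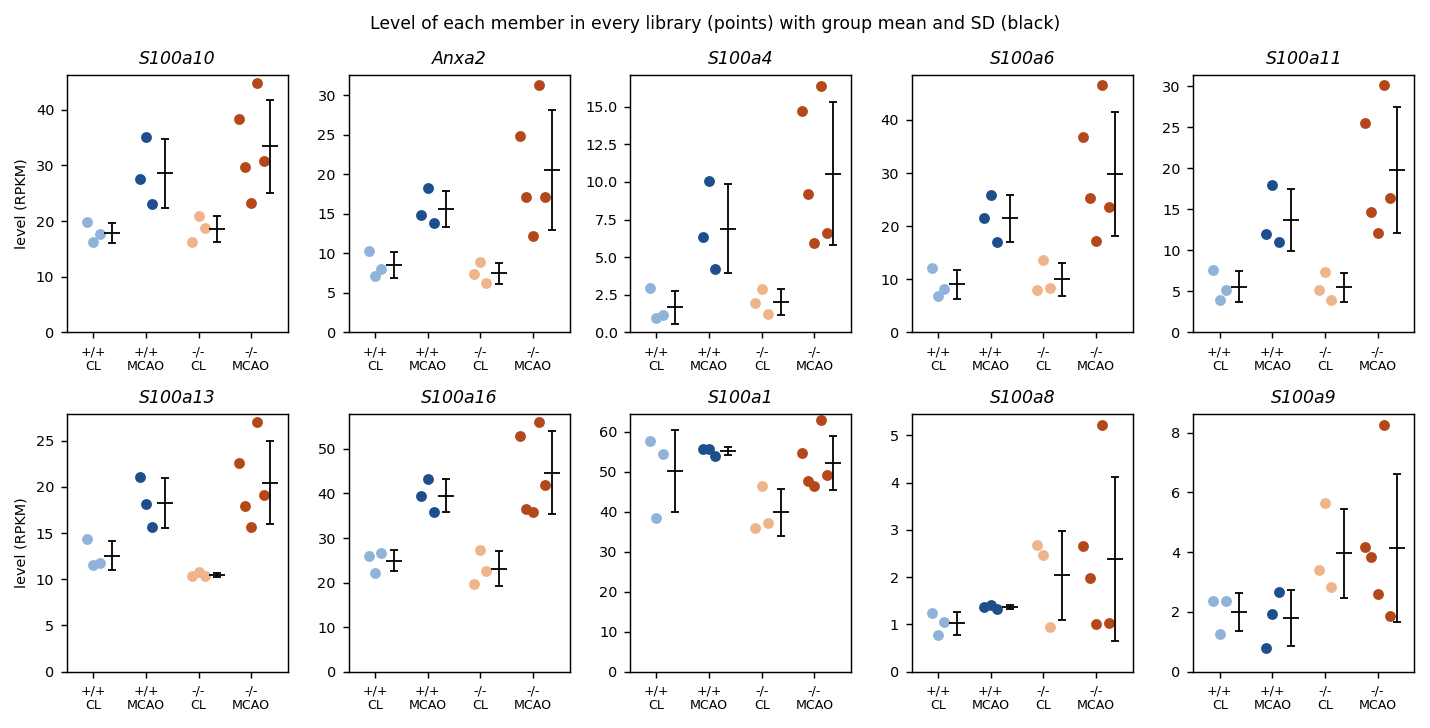
Level of each of the 10 genes in RPKM (vertical axes, from 0) in every library of the 4 groups (points), with group means and SDs in black. For S100a10, Anxa2, S100a4, S100a6, S100a11, S100a13 and S100a16 every MCAO point lies above every CL point of its genotype, whereas S100a1, S100a8 and S100a9 overlap in Cort-/- mice.

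S100a10 and Anxa2 form the complex at the cell surface. S100a10 was at 19.8, 16.2 and 17.6 RPKM in the 3 Cort+/+ CL libraries and at 27.6, 35.2 and 23.0 RPKM in the 3 Cort+/+ MCAO libraries. Among Cort-/- libraries it was at 16.2, 20.9 and 18.8 RPKM in CL and at 38.4, 29.8, 23.3, 44.9 and 30.8 RPKM in MCAO. The hemispheres did not overlap in either genotype, although the lowest Cort-/- MCAO library, 23.3 RPKM, was close to the highest CL library, 20.9 RPKM. The log2 fold change was 0.66 (SE 0.21, adjusted p = 0.362, limma) in Cort+/+ and 0.81 (SE 0.19, adjusted p = 0.0479) in Cort-/- mice, so S100a10 was the called member nearest to the threshold.

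Anxa2, which binds acidic phospholipids when calcium is present and bridges membrane to actin, was less abundant than S100a10. Its Cort+/+ values were 10.3, 7.13 and 8.02 RPKM in CL and 14.9, 18.2 and 13.9 RPKM in MCAO. Its Cort-/- values were 7.36, 8.89 and 6.19 RPKM in CL and 24.9, 17.1, 12.2, 31.4 and 17.1 RPKM in MCAO. No MCAO library fell into the range of its CL group. The mean rose 2.75-fold in Cort-/- mice (log2 fold change 1.38, SE 0.25, adjusted p = 0.0185, limma) and was 1.85-fold higher in Cort+/+ mice (0.88, SE 0.28, adjusted p = 0.359).

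Since both transcripts serve one complex, their ratio was followed within each library, where library scaling cancels. S100a10 was at 1.91, 2.25 and 2.18 times the level of Anxa2 in the Cort+/+ CL libraries and at 1.85, 1.92 and 1.65 times in Cort+/+ MCAO. The ratio was 2.18, 2.34 and 2.998 in Cort-/- CL and 1.54, 1.74, 1.90, 1.43 and 1.79 in Cort-/- MCAO. S100a10 thus remained the more abundant transcript in all 14 libraries, and in Cort-/- mice each MCAO ratio lay under each CL ratio. On the log2 scale the ratio fell by 0.57 in Cort-/- mice (exact two-sided permutation p = 0.0357, adjusted p = 0.143 over 4 ratio tests) and by 0.22 in Cort+/+ mice (exact p = 0.2, adjusted p = 0.4, where 3 against 3 libraries cannot go below 0.1). The permutation p = 0.0357 is the lowest that 5 against 3 libraries can give here. Neither difference passed after adjustment, and with so few libraries none of the 4 ratio tests could have.

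**Figure D2:**
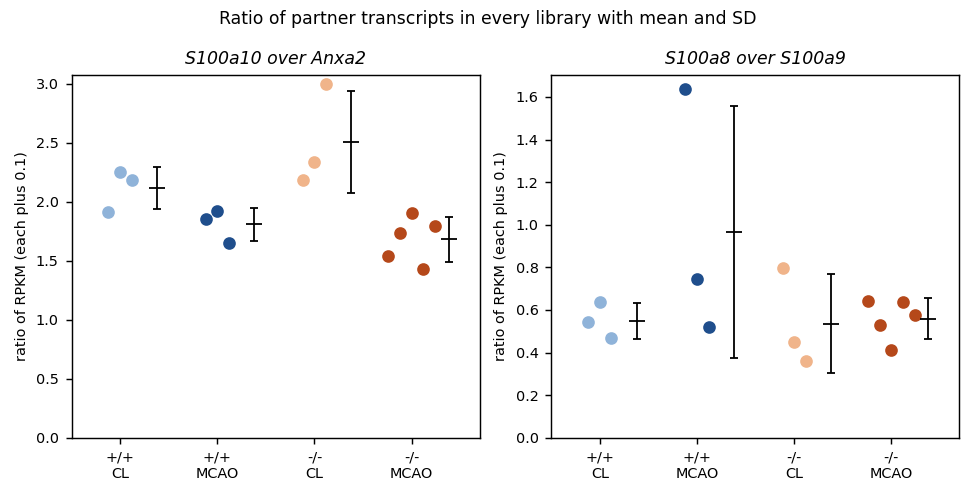
Ratio of RPKM values (each plus 0.1) of S100a10 to Anxa2 (left) and of S100a8 to S100a9 (right) in every library (points), with group means and SDs in black. The left ratios stay above 1 in all libraries and are lower in the MCAO groups, and 1 library, Cort+/+ MCAO replicate 2, stands above the rest on the right at 1.64.

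S100a4, known for binding non-muscle myosin and for marking fibroblasts and motile cells, had the largest change of the 10. It was at 2.93, 0.929 and 1.13 RPKM in Cort+/+ CL and at 6.36, 10.1 and 4.22 RPKM in Cort+/+ MCAO. Its Cort-/- levels were 1.92, 2.90 and 1.24 RPKM in CL and 14.7, 9.20, 5.93, 16.3 and 6.60 RPKM in MCAO. The groups did not overlap, and within each group the highest library was between 2.34 and 3.16 times the lowest. The mean was 5.23-fold higher in Cort-/- (log2 fold change 2.29, SE 0.44, adjusted p = 0.0228, limma) and 4.14-fold higher in Cort+/+ mice (2.07, SE 0.49, adjusted p = 0.213). In GENCODE M39 S100a4 overlaps Gm42674 on the same strand over 2119 bases. Gm42674 gave log2 fold changes of 1.94 in Cort+/+ and 2.11 in Cort-/- mice, so how reads were split between the 2 genes is uncertain.

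S100a6, which binds calcyclin-binding protein and annexins and is found in astrocytes, was at 12.1, 6.79 and 8.25 RPKM in Cort+/+ CL and at 21.5, 25.9 and 17.0 RPKM in Cort+/+ MCAO. The Cort-/- libraries held 8.03, 13.6 and 8.44 RPKM in CL and 36.8, 25.3, 17.2, 46.5 and 23.5 RPKM in MCAO. Again each MCAO library exceeded each CL library of its genotype. The log2 fold changes were 1.26 (SE 0.33, adjusted p = 0.275) in Cort+/+ and 1.52 (SE 0.30, adjusted p = 0.0262, limma) in Cort-/- mice.

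S100a11, a partner of annexin A1 that takes part in membrane repair, followed closely. Its levels were 7.66, 3.96 and 5.14 RPKM in Cort+/+ CL and 12.0, 18.0 and 11.1 RPKM in Cort+/+ MCAO. They were 5.22, 7.41 and 3.93 RPKM in Cort-/- CL and 25.5, 14.7, 12.1, 30.1 and 16.3 RPKM in Cort-/- MCAO. Among the 10 genes it had the second largest change in both genotypes, without overlap between hemispheres. The log2 fold change was 1.78 (SE 0.31, adjusted p = 0.0172, limma) in Cort-/- and 1.30 (SE 0.35, adjusted p = 0.279) in Cort+/+ mice.

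S100a13 and S100a16 changed less than S100a4, S100a6, S100a11 and Anxa2, with smaller standard errors than the other 5 called genes. S100a13, which helps release fibroblast growth factor 1 by a route outside the secretory pathway, was at 14.4, 11.6 and 11.7 RPKM in Cort+/+ CL and at 21.0, 18.1 and 15.6 RPKM in Cort+/+ MCAO. Its Cort-/- CL values were 10.4, 10.7 and 10.3 RPKM and its Cort-/- MCAO values 22.6, 17.9, 15.7, 27.1 and 19.1 RPKM. The Cort-/- change had the lowest unadjusted p of the 10 genes, with a log2 fold change of 0.93 (SE 0.15, adjusted p = 0.013, limma), against 0.53 (SE 0.17, adjusted p = 0.361) in Cort+/+ mice.

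S100a16, expressed in astrocytes and many other cells, was the second most abundant of the 10 in every group. It was at 25.9, 22.2 and 26.5 RPKM in Cort+/+ CL and at 39.4, 43.2 and 35.9 RPKM in Cort+/+ MCAO. Cort-/- mice had 19.6, 27.2 and 22.6 RPKM in CL and 52.9, 36.5, 35.8, 56.0 and 42.0 RPKM in MCAO. The hemispheres stood apart in both genotypes. The log2 fold change was 0.93 (SE 0.15, adjusted p = 0.0136, limma) in Cort-/- and 0.67 (SE 0.17, adjusted p = 0.263) in Cort+/+ mice.

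S100a1, best known from heart muscle, where it acts on the ryanodine receptor and the calcium pump SERCA, was the most abundant of the 10 in all groups. It was at 57.6, 38.4 and 54.3 RPKM in Cort+/+ CL and at 55.7, 55.6 and 54.0 RPKM in Cort+/+ MCAO. Without cortistatin it was at 35.8, 46.4 and 37.1 RPKM in CL and at 54.6, 47.7, 46.3, 63.0 and 49.1 RPKM in MCAO. The Cort+/+ hemispheres overlapped fully, and in Cort-/- mice 4 of 5 MCAO libraries lay above the highest CL library. Its log2 fold changes of 0.16 (SE 0.15, adjusted p = 0.891) and 0.39 (SE 0.13, adjusted p = 0.195, limma) did not pass the test.

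The calprotectin pair was scarce. S100a8 had 13 to 106 reads and S100a9 15 to 180 reads per library, so both rest on few counts. S100a8 was at 1.25, 0.774 and 1.05 RPKM in Cort+/+ CL and at 1.37, 1.41 and 1.33 RPKM in Cort+/+ MCAO, a small shift without overlap. It was at 2.69, 2.47 and 0.953 RPKM in Cort-/- CL and at 2.65, 1.99, 1.01, 5.22 and 1.02 RPKM in Cort-/- MCAO, where 1 library, replicate 4, exceeded all CL libraries. S100a9 was at 2.38, 1.27 and 2.36 RPKM in Cort+/+ CL and at 0.799, 1.92 and 2.66 RPKM in Cort+/+ MCAO. Its Cort-/- values were 3.39, 5.65 and 2.84 RPKM in CL and 4.18, 3.84, 2.61, 8.26 and 1.85 RPKM in MCAO, again with replicate 4 alone above CL. The log2 fold changes were 0.41 and 0.08 for S100a8 and −0.25 and −0.05 for S100a9 in Cort+/+ and Cort-/- mice (adjusted p between 0.908 and 0.992, limma).

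S100a8 stood at 0.518 to 1.64 times S100a9 in Cort+/+ MCAO and at 0.358 to 0.798 times in Cort-/- CL. Their log2 ratio differed between hemispheres by 0.66 in Cort+/+ (exact permutation p = 0.3) and by 0.13 in Cort-/- mice (exact permutation p = 0.679), with adjusted p of 0.4 and 0.679 over the 4 ratio tests. The lone Cort+/+ MCAO ratio above 1, in replicate 2, came with the lowest S100a9 level of all libraries.

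**Figure D3:**
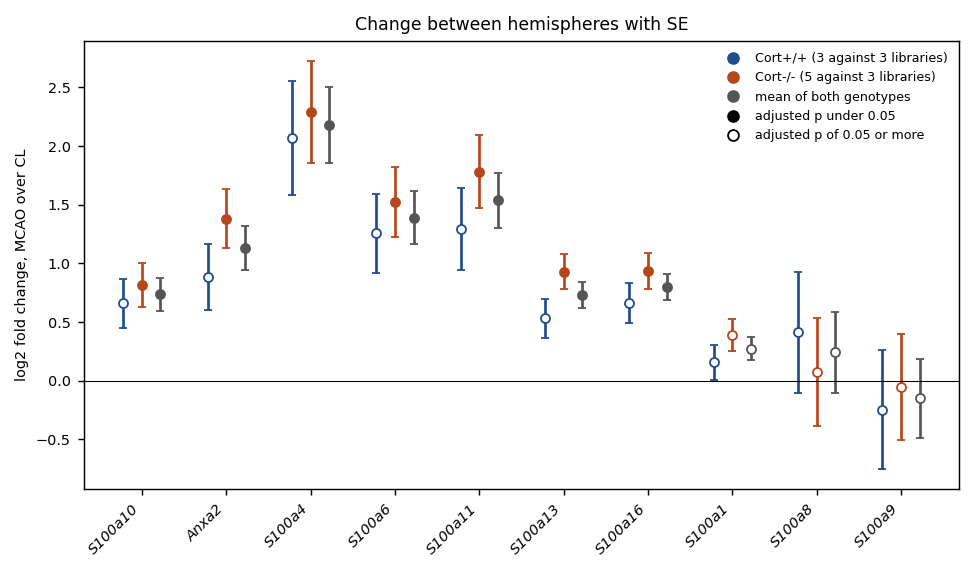
Log2 fold change of MCAO over CL with its SE (vertical axis) for each gene in Cort+/+ mice, Cort-/- mice and the mean of both; filled points have an adjusted p under 0.05. The 7 genes on the left are filled in Cort-/- mice and in the mean, and none is filled in Cort+/+ mice.

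Counts of members without overlap use no model. All MCAO libraries lay above all CL libraries for 8 of 10 members in Cort+/+ mice, all but S100a1 and S100a9, beside 5.73% of all genes. In Cort-/- mice this held for 7 of 10, all but S100a1, S100a8 and S100a9, beside 4.85%. The calls in Cort-/- mice depended on single libraries, for the members as for all genes, of which 792 were called in either direction with all libraries. Without CL replicate 1 or CL replicate 3 the number of members called was 0, and that of all genes 130 and 144. It was 3 members and 263 genes without MCAO replicate 1, and 4 members and 293 genes without MCAO replicate 4. The fold changes of the 7 kept their sign in these fits. The number of members was also 0 when the fit held only the 2 Cort-/- groups, where 86 of all genes were called. In the mean of both genotypes the count was 7 without any 1 library.

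In order of level, S100a1 led in every group, followed by S100a16 and S100a10. In Cort+/+ CL their means were 50.1 ± 10.2, 24.9 ± 2.32 and 17.8 ± 1.81 RPKM (SD, n = 3), and the ranges of these neighbours did not overlap. S100a13, S100a6, Anxa2 and S100a11 came next, at 12.6 ± 1.59, 9.06 ± 2.76, 8.49 ± 1.64 and 5.59 ± 1.89 RPKM, each overlapping the next in this run. S100a9, S100a4 and S100a8 closed the order at 2.00 ± 0.63, 1.66 ± 1.10 and 1.02 ± 0.24 RPKM. In Cort-/- MCAO all neighbours in the order overlapped, and S100a4, at 10.6 ± 4.74 RPKM (SD, n = 5), had passed S100a9, at 4.15 ± 2.48 RPKM.

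Between genotypes none of the 10 was called. In CL, 0 of 10 passed limma, beside a called share of 0.0152% of all genes, and the limma voom fit called 0. Of all 46102 genes tested 1802 had an unadjusted limma p under 0.05, and of the members 0. S100a1 had the lowest p, with a log2 difference of −0.32 (SE 0.15, unadjusted p = 0.0518, adjusted p = 1, limma). In MCAO, 0 of 10 passed, beside a called share of 0.0174% of all genes, and voom called 0. Of all 46102 genes tested 1762 had an unadjusted limma p under 0.05, and of the members 1. That gene was S100a9, higher in Cort-/- by 1.13 (SE 0.45, unadjusted p = 0.0263, adjusted p = 1, limma). In CL S100a9 was 0.94 higher on the log2 scale in Cort-/- mice (SE 0.50, unadjusted p = 0.0858, limma). It rested there on 23 to 46 reads in Cort+/+ and 48 to 98 reads in Cort-/- libraries. In MCAO 9 of 10 members had a higher mean log2 level in Cort-/-, with a median of 0.36, beside −0.002 over all genes. The members do not count as separate evidence, since Cort-/- MCAO replicate 4 was the highest library of its group for 10 of 10.

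The difference between genotypes in the response itself was tested as an interaction. In limma 0 of 10 members passed it, beside 0.00217% of all genes, and in voom 0. An unadjusted limma p under 0.05 was found for 0 members and for 1527 of all 46102 genes tested. The log2 fold change was larger in Cort-/- mice for 9 of 10 genes, by up to 0.50 (Anxa2), and smaller for S100a8 by 0.33. The median difference was 0.25 for the members, most of which moved together across libraries, and −0.006 for all genes. S100a13 had the lowest p, at 0.40 (SE 0.23, unadjusted p = 0.102, adjusted p = 1, limma). So the calls in Cort-/- mice, which had 5 rather than 3 MCAO libraries, do not show that the genotypes responded differently.

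Most members moved together across the replicates of a group. In Cort-/- MCAO, replicate 4 was the highest library for 10 of 10 members and replicate 3 the lowest for 9, and the 7 called genes summed to 252 and 122 RPKM in them. In Cort+/+ MCAO, replicate 4 was the lowest for 9 members. Among CL libraries, Cort+/+ replicate 1 was the highest for 9 and Cort-/- replicate 2 for 9, with sums of 93.1 and 91.7 RPKM against 68.7 to 78.4 RPKM in the other 4. Over the 14 libraries the Pearson correlations among the 7 genes ran from 0.91 to 0.99 on the log2 scale, and from 0.71 to 0.96 once group means were taken off, whereas those of S100a9 with the 7 ran from 0.10 to 0.34 over all libraries and from 0.33 to 0.67 without group means. For S100a8 these ranges were 0.42 to 0.57 and 0.60 to 0.86. These are descriptions of 14 libraries that share tissue dissection and scaling.

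Marker lists moved with them, and their part in the S100 changes was not tested. Reactive astrocyte markers summed to 70.4 to 236 RPKM in Cort+/+ CL, 216 to 577 in Cort+/+ MCAO, 91.7 to 202 in Cort-/- CL and 263 to 792 in Cort-/- MCAO. Their highest library in each group was the one that was highest for most members: replicate 1, 3, 2 and 4 in this order. Of the list, 3 of 10 rose in Cort-/- mice, namely Vim and Gfap, which build intermediate filaments, and the hyaluronan receptor Cd44, with log2 fold changes of 2.36, 1.96 and 1.84 (adjusted p = 0.00904, 0.0424 and 0.0103, limma). The median of the list was 1.71 there. Microglia markers summed to 101 to 117 RPKM in Cort-/- CL and 153 to 227 in MCAO, and to 103 to 108 and 134 to 208 in Cort+/+ mice. Of these, 4 of 9 rose in Cort-/- mice (among them Olfml3 by 1.54, Cx3cr1 by 0.70 and Csf1r by 0.67 on the log2 scale).

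Monocyte and macrophage markers summed to 6.77 to 12.7 RPKM in Cort-/- CL and 17.8 to 57.3 in MCAO, with 1 of 9 called higher and a median log2 fold change of 1.09, and to 4.87 to 15.2 and 11.6 to 29.9 RPKM in Cort+/+ mice. Neutrophil markers were near the floor: they summed to 3.21 to 4.49 RPKM in Cort-/- CL, 4.24 to 6.56 in Cort-/- MCAO, 3.20 to 4.02 in Cort+/+ CL and 4.21 to 4.95 in Cort+/+ MCAO. Most of that sum was Csf3r, a receptor also found on microglia, which alone of the 12 rose in Cort-/- mice (log2 fold change 0.66, adjusted p = 0.0145, limma). The defining Ly6g and Elane had at most 2 reads in any library, and Retnlg had 2 to 41. Homeostatic astrocyte markers had 1 of 6 called higher in Cort-/- mice, Aqp4 by 0.68, and summed to 418 to 495 RPKM over all libraries.

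Endothelial markers had 2 of 8 called higher in Cort-/- mice, Kdr by 0.75 and Cdh5 by 0.55, and summed to 47.0 to 54.3 RPKM in CL and 62.4 to 83.1 in MCAO. They summed to 59.0 to 65.1 RPKM in Cort+/+ CL and 63.8 to 68.6 in Cort+/+ MCAO. The mean of Kdr was 1.18 and 2.05 RPKM in Cort-/- CL and MCAO, and 2.31 and 2.25 RPKM in Cort+/+ CL and MCAO. Meningeal and perivascular fibroblast markers had 1 of 7 called higher, Dcn by 0.67, with sums of 21.8 to 23.2 RPKM in Cort-/- CL, 28.2 to 38.7 in Cort-/- MCAO, 20.4 to 24.5 in Cort+/+ CL and 25.1 to 29.1 in Cort+/+ MCAO. None of 6 oligodendrocyte, 8 neuron and 5 red blood cell genes was called in either direction in any hemisphere comparison, with median log2 fold changes of −0.01, −0.13 and 0.05 in Cort-/- mice. Red blood cell genes summed to 87.4 to 186 RPKM in Cort-/- and 97.0 to 330 RPKM in Cort+/+ libraries.

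**Figure D4:**
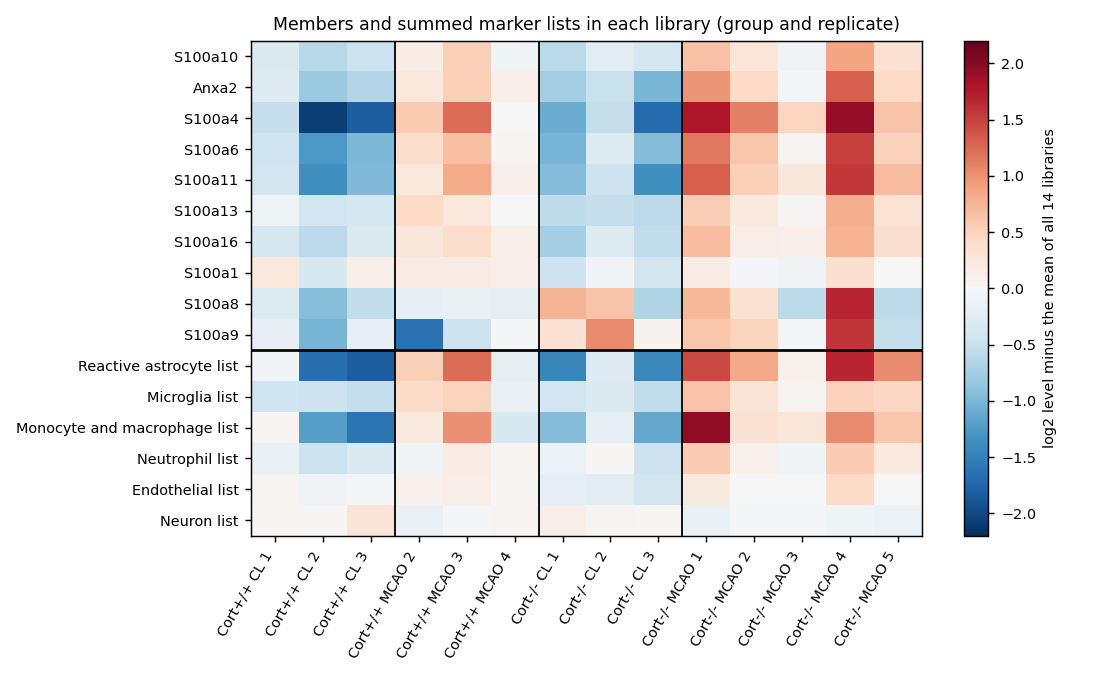
Log2 level minus the mean of all 14 libraries (colour) for the 10 members, as log2(RPKM + 0.1), above the line, and for 6 summed marker lists, as log2 of the summed RPKM, below it, in each library (columns). Cort-/- MCAO 1 and 4 are the reddest columns and Cort+/+ CL 2 among the bluest, for the 7 called genes and for reactive astrocyte markers alike, while the neuron list hardly varies.

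Of 7 further S100 genes, 6 were in the table and 0 of them were called by limma in any comparison, with a median log2 fold change of 0.13 in Cort+/+ and 0.00 in Cort-/- mice. S100b, the main S100 protein of astrocytes and oligodendrocytes, was more abundant per length than any of the 10, at 71.7 ± 2.74 RPKM in Cort+/+ CL, 69.8 ± 10.7 in Cort+/+ MCAO (SD, n = 3 each), 63.6 ± 3.93 in Cort-/- CL (n = 3) and 63.2 ± 2.44 in Cort-/- MCAO (n = 5). S100a5, a gene of olfactory sensory neurons that lies between S100a4 and S100a6, was at 0.0638 to 2.22 RPKM in 13 libraries and at 5.69 RPKM (65 reads) in Cort-/- MCAO replicate 3. S100a3, S100a7a, S100a14 and S100z stayed under 0.67 RPKM.

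Of the 11 other annexins, 3 rose in Cort-/- mice. Anxa3 went from 3.34 ± 0.92 to 6.70 ± 1.25 RPKM (log2 fold change 1.00, adjusted p = 0.0296, limma), Anxa4 by 0.75 (adjusted p = 0.0284) and Anxa5, the phosphatidylserine binder used to stain dying cells, from 23.1 ± 0.62 to 31.5 ± 2.93 RPKM (0.44, adjusted p = 0.00904). In Cort+/+ mice their changes were 0.62, 0.43 and 0.33 and none of the 11 was called. The list's median was 0.24 in Cort-/- mice, against the 1.38 of Anxa2. Of 17 receptors, binding partners and client proteins of the S100 family and of the Anxa2 complex, 2 rose in Cort-/- mice, with a list median of 0.20. The one whose mean reached 1 RPKM was Iqgap1, a scaffold of the cell cortex, with a log2 fold change of 0.55 (SE 0.08, adjusted p = 0.00904, limma).

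The chromosome 3 region that holds the 9 S100a genes spans 3.06 Mb from the start of S100a13 to the end of S100a10, and 52 genes of the table lie in it. Of the 38 that are not S100a genes, only 3 reached a mean of 1 RPKM. Gm42674, which overlaps S100a4, was called higher in Cort-/- mice, while Loricrin and Gm4202 changed by −0.18 and −0.15. Within the region, S100a8 and S100a9 lie between S100a6 and S100a11, both called. S100a11 is not a near neighbour: S100a9 starts at 0.184 Mb and S100a11 at 2.998 Mb, with Loricrin and Gm4202 between them. Neighbours differed at the start of the region. There S100a1 and S100a13 overlap by 3509 bases on opposite strands in GENCODE M39, and S100a13 was called where S100a1 was not. Counting used GENCODE M28. The lengths recovered from the levels, 694 and 800 bases, were shorter than the 2895 and 4708 of GENCODE M39. So how far the 2 genes overlapped in the counting is not known. Whether counting used strand is not given in the sources used here, although the library kit marks it. Reads from any overlap of these 2 genes may not be separated.

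**Figure D5:**
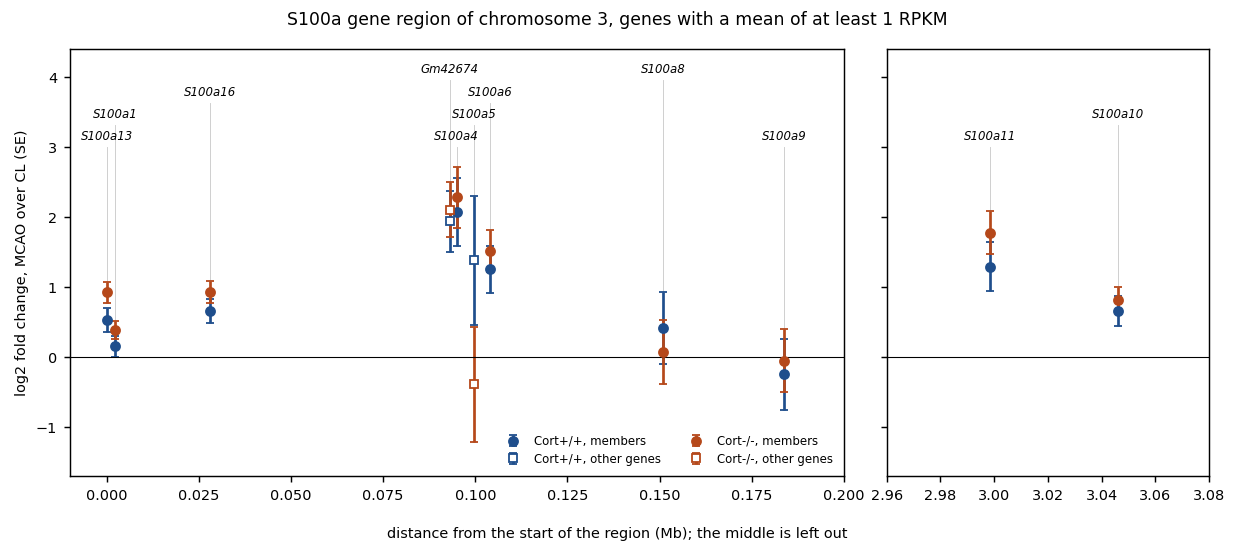
Log2 fold change of MCAO over CL with SE for genes of the S100a region whose mean reached 1 RPKM, against distance from its start in Mb. The 2 panels have different horizontal scales and leave out the middle of the region, where Loricrin and Gm4202 lie. S100a8 and S100a9 stay near 0, with S100a6 higher before them and S100a11, in the other panel, higher after them.

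The start sites of S100a1 and S100a13 face away from each other in RefSeq (GRCm38.p6), unlike in the overlapping models of GENCODE M39. The 104 bases between them, chr3:90514331-90514434 on the plus strand, are shown because both transcripts would begin at their edges while only S100a13 was called.

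S100a1 to S100a13: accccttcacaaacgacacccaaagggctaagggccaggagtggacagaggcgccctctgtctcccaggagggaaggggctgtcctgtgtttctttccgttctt

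Of these bases 58.7% are G or C. RefSeq promoter windows, 250 bases before to 50 after a start, were matched for 9 of the 10 members, S100a10 being without one. The AP-1 motif TGANTCA, on both strands, was found in the windows of 3 members, S100a11, S100a16 and Anxa2, and in 7.81% of all 32851 windows. The stretches are given with the motif in capitals, read toward the gene.

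S100a11: cagagacctgtTGAGTCAcagggactaca

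S100a11: cgggcacagccTGAGTCAggctgaggggc

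S100a16: gaccaccttttTGAATCAgatggtgtgtg

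Anxa2: tccaagttggaTGAGTCAcccagcagggt

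They lie on the plus strand at chr3:93520349-93520377, chr3:93520447-93520475, chr3:90540943-90540971 and chr9:69453577-69453605 (GRCm38.p6). The motif begins 136 and 38 bases before the start of S100a11, 192 before S100a16 and 95 before Anxa2. All 3 genes were among the 7 called. The windows of S100a4, S100a6 and S100a13, also called, lacked the motif, and a link of motif and change was not tested. The letters TATAAA stood in the windows of Anxa2, S100a4, S100a8 and S100a9, against 13.6% of all windows, and TTGCNNAA, the C/EBP letters, in that of S100a9, against 10.8%. The STAT letters TTCNNNGAA (8.3% of all windows) and the NF-kappaB motif, GGGA and TTCC with 2 free bases between them (1.47%), were in none of the 10 member windows searched. These are matches of letters, with no binding measured.

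Outside the list, the genes most like each member were found by Pearson correlation over the 14 libraries among 15053 genes whose mean reached 1 RPKM. For S100a6 they were Nme2 (r = 0.99) and Vim (0.99), for S100a10 Nme2 (0.99) and Inpp5d (0.98), for Anxa2 Esd (0.99) and Ctsl (0.98), and for S100a11 Emp3 and Clic1 (0.99 each). For S100a4 they were Gm42674 (1.00), with which it overlaps, and Capg (0.99), for S100a16 Tm4sf1 and Clic1 (0.98 each), and for S100a13 Efemp2 and Prdx6 (0.97 each). With group means taken off, these values lay between 0.85 and 0.99. S100a1 was most like Gpx4 (0.94) and Rpl41 (0.93), S100a8 like Gsr and Cadm4 (0.87 each), and S100a9 like Ercc3 and Gm55307 (0.90 each).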

How the data were processed

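RNA from the 4 groups was sequenced by the study as stranded mRNA libraries. The authors aligned reads to GRCm39 and counted them on GENCODE M28 genes with reanalyzerGSE, and the deposited values are RPKM per library (14 in all), not pooled; gene lengths and the strand setting are not given in the sources used here. Whole reads were recovered from the RPKM steps for 100% of the 495656 values above 0 (tolerance 0.01 read). Genes above 0 in at least 2 libraries were fitted as log2(RPKM + 0.1), a scale that understates changes of low genes, with limma 3.58.1 in R 4.3.3 (1 model of 4 groups, trend, two-sided), and p-values were adjusted over all genes (Benjamini-Hochberg, threshold 0.05). A count fit, limma voom with TMM factors on the recovered reads, was an alternative. It called 1270 genes in Cort-/- mice, against 792. Partner ratios were compared by exact permutation tests in scipy 1.17.1. The members, the lists and the rules were chosen with earlier results of these data known. All 10 members were named in the hemisphere comparisons, the member of lowest p between genotypes, and from each list at most 4 genes called in Cort-/- mice with the largest change and a mean of at least 1 RPKM. 1 named result is not reported here. The lists were other S100 genes, other annexins, receptors and partners, and markers of neutrophils, monocytes and macrophages, microglia, reactive and homeostatic astrocytes, endothelium, fibroblasts, oligodendrocytes, neurons and red blood cells. Positions and loop sequences come from GENCODE M39, promoters from RefSeq. The fits were tested on simulated data.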

Additional observations from a re-analysis of the deposited data

Results flagged for a closer look

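Cort-/- MCAO replicate 3 had 5.69 RPKM of S100a5, far from the other 4 libraries of its group (0.266 to 1.27 RPKM). Of 26 measures examined in this group of 5 libraries (the 10 members, their ratios, S100a5 and the summed lists), no other stood apart in this way, the groups of 3 being too small for the test, and chance alone gives about 1 in 20.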

How the results depend on the processing

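Members called in Cort-/- mice were 7, and 6 or 7 under other pseudocounts, filters, scalings and the fit on reads. The number was 0 with only the groups compared and 0 to 7 without 1 library. It was also 0 with a replicate block, a fit that called 0 of all 46102 genes. Without both CL libraries of high reactive astrocyte markers, an alternative chosen after seeing the data, 4 were called (S100a4, S100a6, S100a11 and S100a16). That fit called 205 of all genes, against 792 with all libraries. In the mean of both genotypes the replicate block also gave 0, for the members and for all genes, and all other alternatives gave 7 members. Deviations of same-numbered hemispheres of a genotype had correlations from −0.24 to 0.32, and those of differently numbered ones from −0.32 to 0.40. So few pairs cannot show whether the numbers pair the samples. Among the member changes and ratios, directions reversed only for values that were not called. With the replicate block S100a8 was at −0.081 in Cort-/- mice. Without 1 library, S100a8 ran from −0.371 (without CL replicate 3; also −0.025 and −0.263 without MCAO replicate 1 and 4) to 0.330 in Cort-/- mice. S100a9 ran from −0.341 to 0.228 in Cort-/- mice (positive without CL replicate 2, and at 0.065 and 0.184 without MCAO replicate 3 and 5), from −0.590 to 0.219 in Cort+/+ mice and from −0.321 to 0.083 in the mean (positive without Cort+/+ MCAO replicate 2), and was at 0.228 and 0.063 in Cort-/- mice and the mean without both CL libraries. S100a1 in Cort+/+ mice ran from −0.021 (without CL replicate 2) to 0.270, and the S100a8 to S100a9 log2 ratio in Cort-/- mice from −0.116 (without CL replicate 3) to 0.462. The cause was not tested. The S100a10 to Anxa2 ratio in Cort-/- mice ran from −0.663 to −0.434 without 1 library. Precision is limited by 3 libraries in most groups, by 13 to 180 reads for S100a8 and S100a9, and by genes that overlap.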
